A study of Mus musculus with 13 samples.

Results

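mmu-mir-383 is a microRNA (miRNA) hairpin encoded in an intron of Sgcz. Its rows were taken from small RNA libraries of mouse brain by the name of the hairpin, which gave 2 of the 1514 listed pairs of a hairpin and a mature miRNA, namely miR-383-5p and miR-383-3p, the products of its 5′ and 3′ arms. Both were listed in each of the 13 libraries. The hairpin was selected on the counts of these same libraries, because miR-383-5p was lower in TgR than in FVB/N mice in both brain regions, so its differences by genotype are described here without a test. The libraries came from the hippocampi of 3 FVB/N and 3 TgR mice and from the prefrontal cortices (PFC) of 3 FVB/N and 4 TgR mice. All animals were on the FVB/N strain, a common inbred background for transgenic mice. FVB/N mice were wild type, whereas TgR mice carry a transgene for AChE-R, a soluble form of human acetylcholinesterase made by alternative splicing. The transgene is described as always on, under a viral (CMV) promoter. The authors also state that expression from this promoter depends on neuronal activity, and they found the product in subsets of neurons. The mice received no treatment named in the labels, and their age and sex, the integration site of the transgene, and whether hippocampus and PFC came from the same animals are not given in the sources used here.

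A miRNA hairpin is cut from a longer transcript by Drosha in the nucleus and trimmed by Dicer in the cytoplasm. In most cases, 1 arm of the resulting duplex is kept in an Argonaute protein, where it guides the repression of mRNAs that pair with its seed, and the other arm is degraded. An intronic hairpin can be released from the transcript of its host gene, which for miR-383 encodes zeta-sarcoglycan, a member of the sarcoglycan complex that links the cytoskeleton to the extracellular matrix. miR-383 is known mostly from brain, testis and ovary, and it has been studied as a restraint on growth in tumor cells.

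On mouse chromosome 8 of the GRCm38 build, the hairpin occupies chr8:38252133-38252202 on the minus strand (70 bases, GENCODE M21). It lies in the first intron of Sgcz, which is transcribed from the same strand, spans 37522298 to 38661508 and is 1139211 bases long. That intron alone measures 707667 bases (37953058 to 38660724) and is intron 1 of both annotated transcripts, Sgcz-201 and Sgcz-202. The hairpin starts 408.5 kb downstream of the first exon, outside any exon or UTR. The mRNA of Sgcz was not measured in these small RNA libraries.

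miR-383-5p was a miRNA of intermediate abundance in every library. Levels are given in CPM (counts per 1000000), which are the deposited counts scaled by library total and by TMM factors over all 13 libraries. In the FVB/N PFC it was at 841, 724 and 938 CPM in replicates 1, 2 and 3. In the FVB/N hippocampus it was at 316, 558 and 551 CPM. In the TgR PFC, replicates 1 to 4 had 314, 176, 288 and 259 CPM, and in the TgR hippocampus replicates 1 to 3 had 124, 179 and 175 CPM. The FVB/N libraries were therefore all higher than the TgR libraries, across regions as well as within them, although the lowest FVB/N hippocampal library (316 CPM) and the highest TgR PFC library (314 CPM) were almost level. Because these are bulk tissues, fewer cells that express miR-383 and less miR-383 per cell cannot be told apart.

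**Figure D1:**
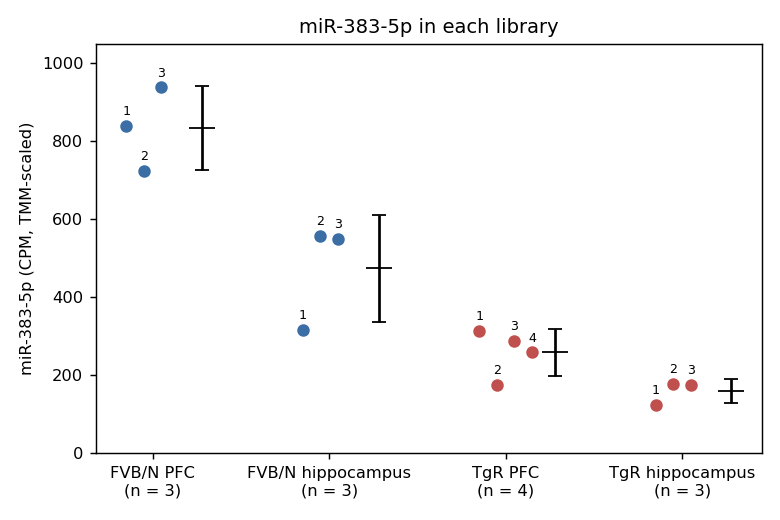
Level of miR-383-5p in TMM-scaled CPM (vertical axis) in each library, by genotype and region (horizontal axis), with replicate numbers beside the points and the mean ± SD of each group as a bar. The 3 FVB/N PFC libraries (724 to 938 CPM) are the highest, and the 7 TgR libraries lie between 124 and 314 CPM.

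In descending order, the means were 834 ± 107 CPM in the FVB/N PFC (SD, n = 3), 475 ± 138 CPM in the FVB/N hippocampus (SD, n = 3), 259 ± 60.02 CPM in the TgR PFC (SD, n = 4) and 159 ± 30.5 CPM in the TgR hippocampus (SD, n = 3). Between the FVB/N PFC and the FVB/N hippocampus the ranges did not overlap, and the means differed 1.76-fold. Between the FVB/N hippocampus and the TgR PFC the means differed 1.83-fold, but the gap between the ranges was only 1.01-fold. The TgR PFC and the TgR hippocampus, next to each other at the lower end, overlapped, since TgR PFC replicate 2 (176 CPM) lay below TgR hippocampus replicate 2 (179 CPM).

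The same order was visible without any scaling, from the place of miR-383-5p among all pairs of its library. It was ranked 88 to 99 in the FVB/N PFC and 147 to 182 in the TgR PFC, counted from the most abundant pair. In the hippocampus it was ranked 107 to 141 in FVB/N and 180 to 201 in TgR mice. In both regions the ranks of the genotypes did not overlap. Between 1683 and 14138 reads were counted on miR-383-5p per library, that is 0.0127% to 0.0932% of the library, so counting error was small against the spread between mice.

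In the hippocampus, miR-383-5p was 2.97-fold lower in TgR than in FVB/N mice, a log2 fold change of -1.57 ± 0.24 (standard error, edgeR). The lowest FVB/N library exceeded the highest TgR library 1.77-fold. In the PFC it was 3.30-fold lower in TgR mice, a log2 fold change of -1.72 ± 0.18 (standard error, edgeR), and the gap between the genotypes was 2.31-fold. With each mouse of the region left out in turn, the log2 fold change stayed between -1.85 and -1.47 in the hippocampus and between -1.82 and -1.59 in the PFC. These values led to the choice of the hairpin and are given as a description.

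How unusual such a position was among the other miRNAs of these libraries differed between the regions. In the hippocampus, every TgR library was below every FVB/N library for 96 of 726 tested pairs (13.2%), and miR-383-5p had the 8th lowest log2 fold change. In the PFC this was so for 10 of 730 tested pairs (1.37%), and miR-383-5p had the 2nd lowest log2 fold change. In both regions together it was so for 3 of 717 pairs (0.418%), miR-383-5p among them. The other two were miR-182-5p, a miRNA of sensory cells, and miR-298-3p, named here after their values were seen. miR-182-5p had mean levels of 26.9 and 8.86 CPM in FVB/N and TgR hippocampi and of 16.0 and 9.85 CPM in FVB/N and TgR PFC. miR-298-3p was below 2 CPM on average in all 4 groups, with log2 fold changes of -1.60 and -1.25 in hippocampus and PFC. With the quasi-likelihood test of edgeR and Benjamini-Hochberg adjustment, 25 of 726 pairs (3.44%) passed an adjusted p of 0.05 between genotypes in the hippocampus and 1 of 730 (0.137%) in the PFC. Both counts include miR-383-5p, the 1 pair in the PFC, on the values by which it was chosen, and nothing about it is read from them.

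**Figure D2:**
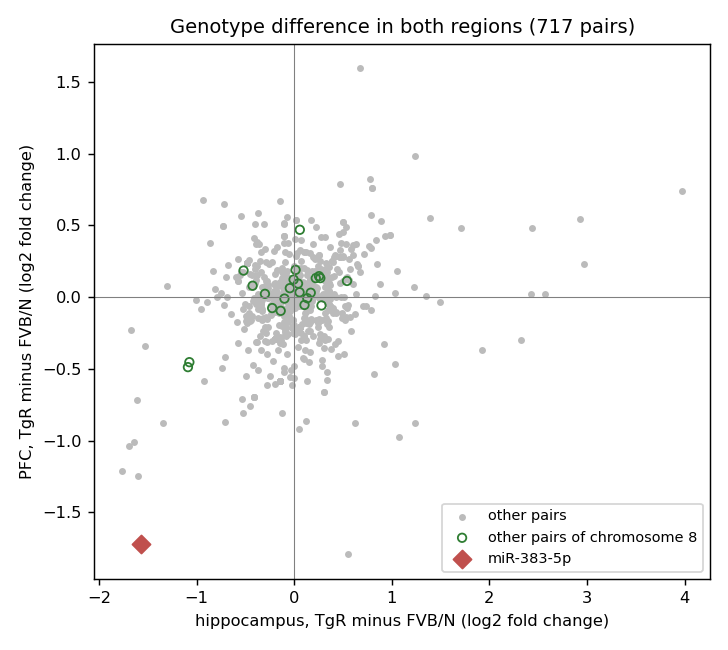
Log2 fold change of TgR against FVB/N mice in the hippocampus (horizontal axis) and in the PFC (vertical axis) for 717 pairs of hairpin and mature miRNA tested in both regions. Gray points are other pairs, green circles are other pairs encoded on chromosome 8, and the red diamond, at -1.57 and -1.72, is miR-383-5p.

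Pairs of similar abundance moved less. There were 81 pairs with a mean level within 1 log2 unit of that of miR-383-5p (171 to 665 CPM). Their log2 fold changes between genotypes had a median of 0.051 in the hippocampus and ranged from -1.09 (miR-486a-5p, a miRNA of red blood cells) to 1.03. In the PFC their median was 0.040 and the range was -0.92 (miR-129-2-3p) to 0.76. None of the 81 had as low a log2 fold change as miR-383-5p in either region. The hairpin was chosen by these values, so its place below the 81 pairs is a description only. Over all tested pairs, the median log2 fold change was -0.0031 in the hippocampus and 0.0015 in the PFC.

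The spread of miR-383-5p between mice of the same group was larger than for most of these 81 pairs. Its SD on the log2 scale, around the means of the 4 groups, was 0.35, against a median of 0.23 for the 81 pairs, of which 82.7% had a smaller SD. In the hippocampal libraries alone its SD was 0.39 (median of the 81 pairs 0.18). The library farthest from its group in the hippocampus was FVB/N replicate 1 (316 CPM), below replicates 2 and 3 (558 and 551 CPM). In the TgR PFC, replicate 2 (176 CPM), which was also the least deeply sequenced library of the series, was below the other three. The coefficient of variation was 29.0% in the FVB/N hippocampus, 23.2% in the TgR PFC, 19.1% in the TgR hippocampus and 12.9% in the FVB/N PFC.

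Nearly all reads of the hairpin came from its 5p arm. Over the 13 libraries, 78904 reads were counted on miR-383-5p and 62 on miR-383-3p, a ratio of 1273 to 1, or 0.0785% of the reads of the hairpin on the 3p arm. Among 323 hairpins with 2 listed arms and at least 1000 reads, the less abundant arm held a median of 3.35% of the reads, and 42 hairpins had a smaller share than mmu-mir-383. The few counts of the 3p arm limit the precision of its values.

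miR-383-3p was counted 15, 8 and 3 times in replicates 1, 2 and 3 of the FVB/N PFC and 3, 8 and 5 times in the FVB/N hippocampus. In TgR mice it was counted 3, 6, 1 and 2 times in PFC replicates 1 to 4 and 5, 1 and 2 times in hippocampal replicates 1 to 3. The genotypes overlapped in both regions, and several libraries were at or below 3 counts, the limit that a count of 0 allows. This floor and all intervals on these counts cover counting error only. Summed over each group, there were 26 reads in the FVB/N PFC and 12 in the TgR PFC. In CPM by library totals this was 0.620 (exact Poisson 95% interval 0.405 to 0.908) against 0.206 (0.107 to 0.360), a ratio of 0.333 of TgR to FVB/N (exact 95% interval 0.153 to 0.683). In the hippocampus, 16 reads in FVB/N and 8 in TgR mice gave 0.379 (0.217 to 0.616) against 0.160 (0.0690 to 0.315) CPM, a ratio of 0.422 (0.156 to 1.04). The ratio in the PFC was 0.196 without TgR replicate 2, which alone gave 6 of the 12 reads, and 0.502 without FVB/N replicate 1, and in the hippocampus it was 0.250 without TgR replicate 1.

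The share of the 3p arm in the reads of the hairpin lay close together in the 4 groups. It was 0.0732% in the FVB/N PFC (exact binomial 95% interval 0.0478% to 0.107%), 0.0813% in the TgR PFC (0.0420% to 0.142%), 0.0788% in the FVB/N hippocampus (0.0450% to 0.128%) and 0.0959% in the TgR hippocampus (0.0414% to 0.189%). The intervals overlapped throughout, and a difference in the balance of the arms between genotypes was not detectable at this depth. Single libraries ran from 0.0227% to 0.355%, with the highest share in TgR PFC replicate 2.

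**Figure D3:**
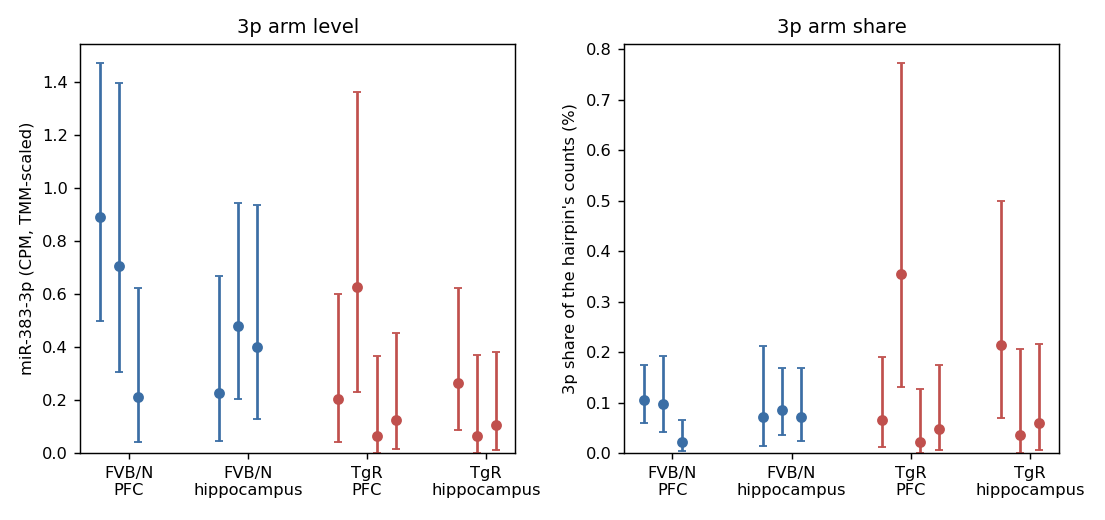
Left, level of miR-383-3p in TMM-scaled CPM in each library, by group (horizontal axis), with exact Poisson 95% intervals. Right, share of the 3p arm in the reads of the hairpin (percent) with exact binomial 95% intervals. Blue marks FVB/N and red TgR libraries, and each library has 1 to 15 counts. TgR PFC replicate 2 has the highest share, 0.355%.

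The difference between the regions was not what the hairpin was chosen for, and it was tested in a fit of all 13 libraries. In FVB/N mice, miR-383-5p was at 0.569 of its PFC level in the hippocampus, with a log2 difference of -0.81 (standard error 0.25, 95% interval -1.34 to -0.29). All 3 hippocampal libraries were below all 3 PFC libraries, as for 71 of 751 tested pairs (9.45%). Its adjusted p was 0.064 (unadjusted p = 0.0050, quasi-likelihood test of edgeR, Benjamini-Hochberg adjustment), and it was therefore not among the 40 of 751 pairs (5.33%) past the threshold. In TgR mice it was at 0.615 of its PFC level in the hippocampus, with a log2 difference of -0.70 (standard error 0.23, 95% interval -1.20 to -0.20), an adjusted p of 0.087 (edgeR) and overlapping libraries, while 60 of 751 pairs (7.99%) passed. These calls depended on the processing. With DESeq2, the adjusted p was 0.017 in FVB/N and 0.048 in TgR mice.

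The difference between the region contrasts of TgR and FVB/N mice was 0.11 on the log2 scale (standard error 0.33). It equals the difference between the genotype effects of the regions, by which the hairpin was chosen, and is given without a test. Among all pairs, 4 of 751 (0.533%) passed in this contrast, and nothing is read from that share here. The 3p arm had a log2 difference between hippocampus and PFC of -0.69 in FVB/N mice (standard error 0.63, adjusted p = 0.63, edgeR) and of -0.54 in TgR mice (standard error 0.80, adjusted p = 0.81, edgeR), and with so few counts neither size can be told from 0.

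Few measured hairpins lie near mmu-mir-383 on chromosome 8. Of the 44 other hairpins of the series placed on this chromosome, those within 10 Mb, mmu-mir-6395 (at -4.09 Mb) and mmu-mir-7666 (at 2.06 Mb, counted towards higher coordinates), had 4 and 16 counts in all 13 libraries together and could not be tested. The nearest tested hairpins were mmu-mir-486a and mmu-mir-486b, at -15.1 Mb in the locus of Ank1, the ankyrin gene of red blood cells. They lie on opposite strands of the same bases and share reads, so they count as 1 signal. In the hippocampus, the mean level of miR-486a-5p was 258 ± 47.6 CPM for FVB/N against 120 ± 40.8 CPM for TgR (SD, n = 3 for both). Its log2 fold change there was -1.09 with a standard error of 0.25 (adjusted p = 0.051, edgeR). In the PFC its mean level was 264 ± 64.4 CPM for FVB/N (SD, n = 3) against 191 ± 43.5 CPM for TgR (SD, n = 4), and the log2 fold change was -0.49 with a standard error of 0.22 (adjusted p = 1.00, edgeR). Its 3p arm, miR-486a-3p, had log2 fold changes of -0.23 and -0.077 in hippocampus and PFC.

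The next tested hairpins lay farther away. miR-1968-5p, in an intron of Grtp1 at -25.1 Mb, had log2 fold changes of -0.10 in the hippocampus and -0.011 in the PFC. On the other side, miR-7240-5p (32.5 Mb) had -0.71 in the hippocampus (adjusted p = 0.23, edgeR), with 1.44 CPM for FVB/N and 0.868 CPM for TgR, and was too low for a test in the PFC. miR-8111 (45.8 Mb) had 0.058 and 0.47. miR-181d-5p (45.9 Mb), of the miR-181 family that is abundant in brain, had -0.30 and 0.022, at 1078 and 871 CPM in FVB/N and TgR hippocampi. Its other arm, miR-181d-3p, was tested in the PFC, with a log2 fold change of -0.20. The 3p arm of mmu-mir-486b had -0.43 and 0.079.

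Over the whole chromosome, without mmu-mir-383, 0 of 24 tested pairs passed between genotypes in the hippocampus and 0 of 23 in the PFC (edgeR). Among all tested pairs without mmu-mir-383 the shares were 3.31% and 0%, so in the PFC there was no call to compare with. At an unadjusted p under 0.05 there were 4 in the hippocampus and 0 in the PFC, and DESeq2 called 3 in the hippocampus, namely miR-486a-5p, miR-486b-5p and, in the other direction, miR-23a-3p, and 0 in the PFC. Of all 725 hippocampal pairs without mmu-mir-383, 126 (17.4%) had an unadjusted p under 0.05 and DESeq2 called 53 (7.31%), beside 16.7% and 12.5% of the pairs on chromosome 8. The 12.5% counts the miR-486 signal at both of its hairpins. The median log2 fold change on chromosome 8 was 0.027 in the hippocampus and 0.033 in the PFC. They were not dense enough to describe the region between -15.1 Mb and 32.5 Mb.

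**Figure D4:**
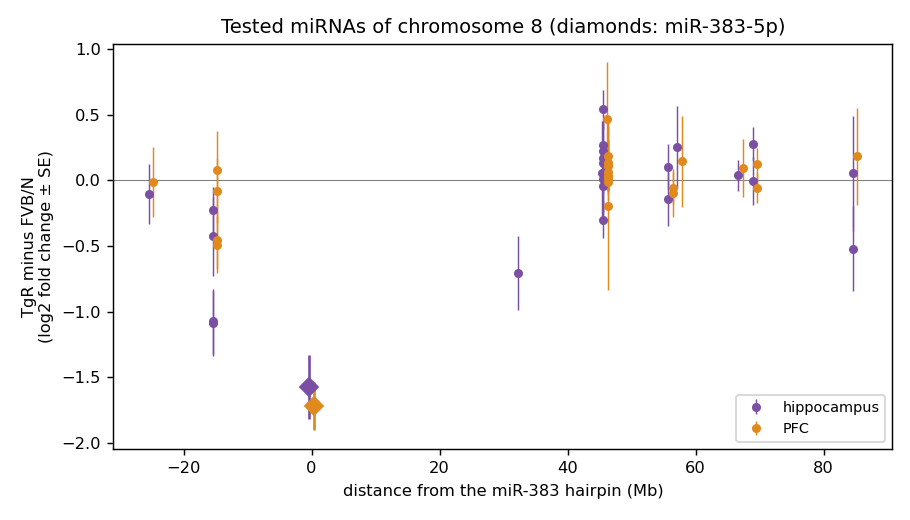
Log2 fold change of TgR against FVB/N mice ± standard error (vertical axis) for the tested miRNAs of chromosome 8, by distance from the miR-383 hairpin in Mb (horizontal axis), in hippocampus (purple) and PFC (orange), drawn slightly apart. The diamonds at 0 Mb are miR-383-5p, and the nearest other points are those of mmu-mir-486a and mmu-mir-486b at -15.1 Mb.

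Other hairpins in introns of protein-coding genes on the same strand were compared as a group. Of 443 such hairpins, 200 were tested in each region. In the hippocampus, 5 of their 314 pairs passed between genotypes, 4 higher and 1 lower in TgR mice (edgeR), 15 passed by DESeq2 and 46 had an unadjusted p under 0.05 (14.6%). Among all 725 pairs other than those of mmu-mir-383 the numbers were 24, 53 and 126 (17.4%). The median log2 fold change of the intronic pairs was -0.020. The higher ones were miR-448-3p (3.98), miR-1298-5p (2.93) and miR-1264-3p (2.43), all in introns of the serotonin receptor gene Htr2c, and miR-23b-5p (1.05). The lower one was miR-200a-5p (-2.56), of an epithelial family. In the PFC, 0 of 313 pairs passed by edgeR or by DESeq2, and the median was -0.0098. An unadjusted p under 0.05 (edgeR) was found for 9 of the 313 (2.88%), beside 18 of all 728 PFC pairs without mmu-mir-383 (2.47%).

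The levels of a few miRNAs ran partly in parallel with miR-383-5p. Likeness was measured as Pearson's r of log2 CPM over the 13 libraries, among 750 pairs, and it describes these libraries only, since they share 4 group means and 1 scaling. The 5 highest values were 0.76 for miR-412-5p, 0.75 for miR-134-5p, 0.74 for miR-1224-5p, 0.74 for miR-411-5p and 0.72 for miR-881-3p, and no pair reached 0.8. miR-383-3p, the other arm, ranked 48th with 0.51, and its r was -0.43 when the mean of each group was taken away. With group means taken away, r was -0.048 for miR-412-5p, 0.56 for miR-134-5p, 0.78 for miR-1224-5p, 0.40 for miR-411-5p and 0.59 for miR-881-3p. miR-412-5p, miR-134-5p and miR-411-5p belong to the imprinted Dlk1-Dio3 locus of chromosome 12, miR-1224-5p lies in an intron of Vwa5b2 on chromosome 16, and miR-881-3p is encoded on chromosome X. Their mature sequences (RefSeq, GRCm38.p6, all 5 matched by name) are shown because they are the closest profiles and allow their targeting to be compared, with the seed, bases 2 to 8, in capitals.
miR-412-5p: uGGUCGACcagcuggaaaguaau
miR-134-5p: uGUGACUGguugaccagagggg
miR-1224-5p: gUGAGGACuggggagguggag
miR-411-5p: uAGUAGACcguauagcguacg
miR-881-3p: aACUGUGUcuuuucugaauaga
The 5 miRNAs have 5 distinct seeds, so they form no seed family among themselves.

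None of the 5 had a difference between genotypes in the PFC of the size seen for miR-383-5p. The hippocampal mean of miR-412-5p was 42.8 ± 2.59 CPM for FVB/N and 25.6 ± 1.29 CPM for TgR (SD, n = 3 for both), and its PFC mean was 41.6 ± 7.13 CPM for FVB/N (SD, n = 3) and 30.04 ± 5.85 CPM for TgR (SD, n = 4). Its log2 fold changes were -0.73 in the hippocampus and -0.49 in the PFC. Those of miR-134-5p were -0.46 and -0.11, those of miR-411-5p -0.50 and -0.13, and those of miR-1224-5p -0.38 and -0.31 in hippocampus and PFC. miR-881-3p was at 0.816 and 0.257 CPM in FVB/N and TgR hippocampi and at 1.48 and 1.25 CPM in FVB/N and TgR PFC, with log2 fold changes of -1.67 and -0.23. The 5 miRNAs were picked for their likeness to miR-383-5p over these same libraries, with group means kept. Their genotype differences are therefore a description only, and no test is read from them.

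**Figure D5:**
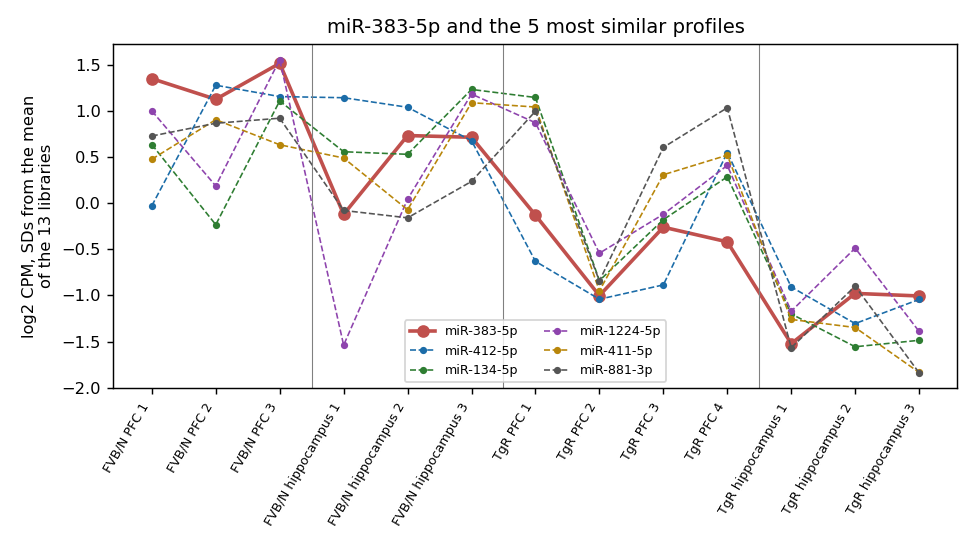
Log2 CPM of miR-383-5p (thick red line) and of the 5 miRNAs with the highest Pearson's r to it, each as SDs from its mean over the 13 libraries (vertical axis), for each library (horizontal axis, group and replicate). The lines only join the points of a miRNA. All 6 profiles are lowest on average in the TgR hippocampus, the group at the right.

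When the mean of each group was taken away, so that only the differences between mice of 1 group were left, other miRNAs came first. miR-341-5p (r = 0.90), miR-499-5p (r = 0.89) and miR-10a-5p (r = 0.87) had the highest values. Over the 13 libraries with group means kept, the r of these miRNAs with miR-383-5p was 0.60, -0.25 and 0.082. They were the highest of 750 pairs over 13 libraries and are a description only.

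Summed levels of miRNAs that mark other cell types differed between the genotypes in the hippocampus for some lists. The summed level of 10 miRNAs of choroid plexus and ependyma, all listed in every library, ranged over 1201 to 1261 CPM for the FVB/N hippocampus and over 1525 to 4089 CPM for the TgR hippocampus, where 4 of 10 were higher by edgeR, next to 3.44% of all pairs called in either direction. DESeq2 called 5 of them, and 7 had an unadjusted p under 0.05. The shares among all hippocampal pairs without mmu-mir-383 were 7.31% by DESeq2 and 17.4% at an unadjusted p under 0.05. They also stand beside the hippocampal counts of the lists below. The members did not move together, since their log2 fold changes ran from -1.76 (miR-200a-3p) to 2.97, with a median of 1.02. In TgR hippocampal replicates 1, 2 and 3 the sum was 4089, 1525 and 3587 CPM, and miR-383-5p was at 124, 179 and 175 CPM. In the PFC these markers summed to 595 to 779 CPM (FVB/N) and 615 to 699 CPM (TgR). There, 0 of 9 tested markers passed by edgeR or by DESeq2. An unadjusted p under 0.05 (edgeR) was found for 2 of the 9, beside 18 of all 728 PFC pairs without mmu-mir-383 (2.47%). The log2 fold changes of the 9 markers ran from -1.79 (miR-211-5p) to 0.23, with a median of -0.30. Red blood cell miRNAs (4 of 4 listed) summed to 1057 to 1173 CPM (FVB/N) and 481 to 653 CPM (TgR) in the hippocampus, with 2 of 4 lower by edgeR and 4 called by DESeq2 and at an unadjusted p under 0.05, and to 1044 to 1484 CPM (FVB/N) and 1282 to 2192 CPM (TgR) in the PFC. Oligodendrocyte miRNAs (3 of 3) summed to 943 to 1431 CPM (FVB/N) and 1404 to 2203 CPM (TgR) in the hippocampus and to 383 to 583 CPM and 418 to 502 CPM in the PFC. Neuronal miRNAs (6 of 6, among them miR-124-3p) summed to 181689 to 225933 CPM (FVB/N) and 175026 to 204343 CPM (TgR) in the hippocampus and to 208698 to 274086 CPM and 216708 to 281896 CPM in the PFC, and white blood cell miRNAs (4 of 4) to 393 to 399 CPM, 415 to 450 CPM, 468 to 584 CPM and 520 to 621 CPM in the same order. Of the 13 markers in these last 3 lists, 0 passed by edgeR in either region. In hippocampal libraries an unadjusted p under 0.05 was found for 4, beside 17.4% of all pairs. DESeq2 called 2, both of oligodendrocytes, beside 7.31% of all pairs. In the PFC both numbers were 0. The 4 red blood cell markers had 0 calls in the PFC by either tool and 0 at an unadjusted p under 0.05. Whether the makeup of the tissue had a part in the level of miR-383-5p in either region was not tested.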

How the data were processed

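Small RNA of 13 mouse brain samples was sequenced. The authors used FastQC for read quality and miRExpress for alignment to miRBase, and deposited, per library, raw counts for each pair of hairpin and mature miRNA. Unlisted pairs were taken as 0. Totals ranged from 8769851 to 18385985 counts, so 3 counts, the floor used here, were 0.163 to 0.342 CPM before TMM scaling. Mature miRNAs with several hairpins are listed at each of them.

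The counts were fitted with edgeR 4.0.16 (R 4.3.3; TMM, filterByExpr with a minimum of 10, quasi-likelihood test, Benjamini-Hochberg adjustment over all tested pairs, threshold 0.05). Genotype was fitted within each region (726 and 730 pairs) and region over all 13 libraries (751 pairs). The standard error is the log2 fold change over the root of F. Groups came from the sample titles. Intervals on counts are exact (scipy 1.17.1). Hairpins were placed with RefSeq names and GENCODE M21 (882 of 903). Scripts were tested on simulated data. Sequence comparisons for miR-383-5p and miR-383-3p were not made here.

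The hairpin, lists and tests were chosen with earlier results of these data known. Named miRNAs were both arms, the 5 likest pairs over 13 libraries and the 3 likest without group means, tested pairs of the 3 nearest tested hairpins on each side, and called chromosome 8 pairs. Others are marked in the text, and the intronic pairs called by edgeR are named, but the pairs behind several other small counts are not. The alternatives tried included DESeq2 1.42.0, size factors of that tool, library totals, no filter, 1 row per mature miRNA, other sets of libraries, each library left out, and a replicate block. Those for the number of pairs called between regions and for miR-383-3p were added after seeing the data.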

Additional observations from a re-analysis of the deposited data

Results flagged for a closer look

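Of 19 groups of 4 libraries examined for the miRNAs named in the report, 1 held a library far from the others, about as many as chance flags (about 1 in 20). miR-10a-5p in the TgR PFC was at 18.38 CPM in 1 library and at 38.1 to 41.2 CPM in the other three, a gap of 0.866 of the whole range (Dixon's critical value for 4 samples is 0.829). For miR-383-5p in the TgR PFC the gap was 0.603 of the range, below that value.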

How the results depend on the processing

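The level of miR-383-5p stayed lower in TgR mice under all 13 alternatives for the hippocampus and all 14 for the PFC. In the region contrast its direction held in all 20 alternatives for each genotype, at -1.01 to -0.54 in FVB/N and -0.85 to -0.54 in TgR mice with libraries left out in turn, but its call did not. In FVB/N mice it passed with DESeq2 (-0.84), DESeq2 size factors (-0.84), no filter (-0.78) and 1 row per mature miRNA (-0.80), and without TgR PFC replicate 2 (-0.81), TgR hippocampus replicate 1 (-0.87) or TgR hippocampus replicate 3 (-0.87). In TgR mice it passed with DESeq2 (-0.69), without TgR PFC replicate 2 (-0.85) and without FVB/N hippocampus replicate 1 (-0.69). Adjusted p ranged from 0.017 to 0.24 and from 0.027 to 0.28. The difference between both contrasts, 0.11, ranged from -0.15 to 0.33 with libraries left out, and its sign changed without TgR PFC replicate 2 (-0.038) and without FVB/N hippocampus replicate 1 (-0.15). The cause was not tested.

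Counts of called pairs moved more. Between genotypes in the hippocampus (25), they were 54 with DESeq2, 63 with no filter and 9 with the replicate block, which rests on no known pairing there. With each library left out they were 1 to 28 (12 without FVB/N replicate 1, 1 without FVB/N replicate 3, 9 without TgR replicate 3). In the PFC the number was 1 throughout. On chromosome 8 in the hippocampus (0), they were 3 with DESeq2, 3 with no filter, 1 with DESeq2 size factors, 2 with 1 row per mature miRNA, 2 in a fit of all 13 libraries and 0 to 2 with libraries left out (2 without FVB/N replicate 2 or TgR replicate 3). Between regions in FVB/N mice (40), they were 91 with DESeq2, 69 with no filter, 24 with FVB/N libraries only and 23 to 60 with libraries left out (23 without FVB/N hippocampus replicate 2). In TgR mice (60) they were 29 to 81 with libraries left out (39 without PFC replicate 1, 29 without PFC replicate 3, 29 without hippocampus replicate 1, 31 without hippocampus replicate 3).

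Replicate numbers are shared between groups, but nothing says that they mark the same mouse. Between FVB/N and TgR groups a shared number stands for different mice, so the block in the genotype contrasts rests on no known pairing. They are those of the sample titles, whereas the deposited files number the FVB/N PFC libraries 1, 3 and 4, and the block and the following correlations rest on the titles. Deviations of same-numbered hippocampal and PFC libraries correlated at -0.13 to 0.41. Those of differently numbered libraries of the same genotype correlated at -0.29 to 0.11. Whether the same mice gave both regions cannot be told from these values. With the replicate block, the region contrast of miR-383-5p was -0.85 in FVB/N (adjusted p = 0.079, edgeR) and -0.68 in TgR mice (adjusted p = 0.16, edgeR), the difference between both was 0.17, and the genotype difference was -1.54 in the hippocampus and -1.74 in the PFC. The block changed no call in the region contrasts of miR-383-5p. Depth limits statements on miR-383-3p, and the number of mice those on miR-383-5p.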
